A study of Mus musculus with 8 samples.

Results

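The regions described here carried an H3K9ac peak in both libraries of *GFI1-36N* mice, vehicle-treated and curcumin-treated, and in none of the 4 libraries of *GFI1-36S* and *GFI1-KD* mice. The peaks of the 6 lists were merged where they overlapped or touched, which gave 64432 regions, and 1513 of them (2.35%) had this pattern. The corresponding pattern of both *GFI1-KD* lists only was found at 311 regions (0.483%), and that of both *GFI1-36S* lists only at 113 (0.175%). A further 25030 regions had peaks in both *GFI1-36N* lists and in at least 1 other list. The regions were chosen by the presence and absence of peak calls in these same lists, so the calls are a description and were not tested.

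H3K9ac was profiled by ChIP-seq in BM cells of C57BL/6 mice carrying the *NUP98-HOXD13* transgene. This fusion gene gives a model of MDS with progression to AML. The paper's methods name frozen BM cells, and the title of one of its figures names c-kit+ cells. All 6 groups carry the transgene and differ in *GFI1*, as *GFI1-36S* (the common form), *GFI1-36N* (the variant with asparagine in place of serine) or *GFI1-KD* (reduced expression), and in treatment, which was weekly intraperitoneal curcumin at 20 mg/kg or DMSO as vehicle. Each group has 1 library, so differences between groups stand without replicates or tests. Intervals are 95% Wilson intervals and cover counting error only. By the names of their lists, the vehicle library came from a heterozygous and the curcumin library from a homozygous *GFI1-36N* mouse. The labels are silent on zygosity, which cannot be told apart from the treatment. Age and promoter of the transgene are not given in the sources used here. BM is a mixture, and fewer cells of a type and less acetylation per cell cannot be told apart. For the neutrophil list, 14 of 18 genes had a promoter peak in each *GFI1-36N* library, and for the erythroid list 16 of 20 with vehicle and 12 with curcumin. For *GFI1-36S* the names of the lists give the opposite treatment to the labels. The labels are followed throughout, so which *GFI1-36S* library had curcumin is uncertain. Among the lists that had to lack a peak, the library labelled *GFI1-36S* curcumin stood apart, with 1 of 18 neutrophil, 2 of 20 erythroid and 13 of 18 T and NK cell genes. The *GFI1-KD* curcumin library had 9 neutrophil and 8 erythroid genes, and the no-curcumin libraries of these genotypes had 16 or 17 neutrophil and 20 erythroid genes. The part of cell composition in the choice of regions was not tested. Without the *GFI1-36S* curcumin list, 1661 regions had the pattern.

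GFI1 is a zinc finger repressor of blood cells that brings histone deacetylases and the demethylase LSD1 to its target genes. Acetylation of lysine 9 of histone H3 marks active promoters and active enhancers, and its removal goes with silencing. The comparison asks where the mark was listed in *GFI1-36N* mice and in neither of the other genotypes.

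The sequences around the summits of the strongest of these regions are shown first, 4 outside promoters and 2 in promoters, to show what kind of sequence carried the signal. Each spans 100 bases to either side of the summit in the RefSeq sequence of GRCm38.p6, the assembly also called mm10, taking the summit of the stronger *GFI1-36N* peak. Capitals mark matches to the short motifs listed further on, and a match is not evidence of a binding site.
*Fgf13* region, chrX:59585771-59585971, mm10, + strand: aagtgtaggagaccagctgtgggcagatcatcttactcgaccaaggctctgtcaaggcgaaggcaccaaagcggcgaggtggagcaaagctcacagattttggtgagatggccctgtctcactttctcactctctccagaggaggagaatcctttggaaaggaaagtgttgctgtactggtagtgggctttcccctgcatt
*Haao* region, chr17:83998029-83998229, mm10, + strand: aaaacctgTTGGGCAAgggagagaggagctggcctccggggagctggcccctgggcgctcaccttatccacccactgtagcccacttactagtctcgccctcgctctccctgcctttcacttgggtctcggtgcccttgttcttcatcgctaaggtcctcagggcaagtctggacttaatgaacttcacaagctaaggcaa
*Tuba1b* region, chr15:98927785-98927985, mm10, + strand: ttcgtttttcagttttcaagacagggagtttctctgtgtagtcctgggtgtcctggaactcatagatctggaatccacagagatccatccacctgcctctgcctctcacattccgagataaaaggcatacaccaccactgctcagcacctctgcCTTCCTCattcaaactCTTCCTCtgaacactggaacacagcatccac
*Pdzd2* region, chr15:12576943-12577143, mm10, + strand: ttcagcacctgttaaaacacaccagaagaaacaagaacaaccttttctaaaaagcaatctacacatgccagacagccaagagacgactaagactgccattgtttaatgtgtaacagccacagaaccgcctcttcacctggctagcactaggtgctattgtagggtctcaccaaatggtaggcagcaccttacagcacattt
*Zic4* region, chr9:91381636-91381836, mm10, + strand: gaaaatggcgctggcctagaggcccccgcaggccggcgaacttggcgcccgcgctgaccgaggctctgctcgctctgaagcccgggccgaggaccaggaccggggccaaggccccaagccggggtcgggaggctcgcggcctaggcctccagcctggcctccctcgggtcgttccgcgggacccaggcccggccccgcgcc
*Tvp23b* region, chr11:62879068-62879268, mm10, + strand: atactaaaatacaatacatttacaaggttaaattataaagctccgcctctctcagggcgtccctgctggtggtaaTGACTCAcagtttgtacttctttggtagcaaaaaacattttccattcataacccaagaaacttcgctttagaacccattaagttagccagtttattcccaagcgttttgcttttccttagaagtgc
The *Zic4* sequence held 23 CpG and 76.6% GC, as in a CpG island. The *Tvp23b* sequence, also in a promoter, held 4 CpG and 38.3% GC. The *Fgf13*, *Pdzd2* and *Zic4* sequences held no match to any of the motifs searched. The *Haao* sequence held 1 C/EBP match, the *Tvp23b* sequence 1 AP-1 match and the *Tuba1b* sequence 2 PU.1 matches. Repeats are not marked in the printed sequences. The *Tuba1b* sequence was 67.7% repeat-masked, against a median of 10.4% over the 1513 regions. A peak of another list lay 272 bp from the *Tuba1b* region.

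Most of the 1513 regions lay away from promoters. A promoter, taken as the window of 1 kb to either side of a protein-coding TSS, was overlapped by 157 of them (10.4%, 8.94% to 12.02%). The share was 27.0% over all merged regions, 23.5% (19.1% to 28.5%) over the regions of both *GFI1-KD* lists only, and 48.3% over regions shared by both *GFI1-36N* lists and another list. Of the rest, 711 summits (47.0%, 44.5% to 49.5%) lay in an intron of a protein-coding gene, 461 (30.5%) between genes, 104 (6.87%) in a noncoding gene and 80 (5.29%) in an exon. Introns held 40.2% of all merged regions and 31.8% of the *GFI1-KD* regions. With the lists as deposited, the intervals for promoters and introns did not overlap those of the *GFI1-KD* regions. With the same number of top peaks from each list, the promoter share rose to 17.4% (13.2% to 22.7%). The *GFI1-KD* share is not given for that setting, so the contrast at equal list length is not known.

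**Figure D1:**
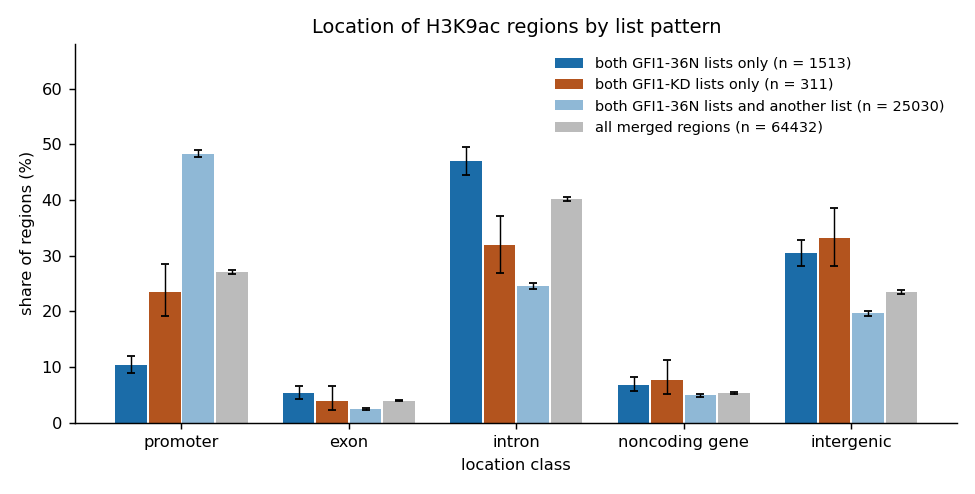
Share of regions (%) in each location class for 4 sets of regions, given by colour, with 95% Wilson intervals as error bars. The regions of both *GFI1-36N* lists only had the smallest promoter share, 10.4%, and the largest intron share, 47.0%, of the 4 sets.

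The median distance from summit to the nearest TSS of a protein-coding gene was 9591 bp, and 739 regions (48.8%) lay more than 10 kb away, against 40.0% of all merged regions and 49.2% (43.7% to 54.7%) of the *GFI1-KD* regions. More than 50 kb separated 204 of them (13.5%, 11.8% to 15.3%) from a TSS, against 11.3% and 17.7% (13.8% to 22.3%). The median width was 440 bp, against 519 bp over all merged regions and 464 bp in the *GFI1-KD* regions. In distance and width the regions were thus close to those of the *GFI1-KD* lists only. Repeat-masked sequence filled over 50% of the window around the summit, of 100 bp to either side, in 93 regions (6.15%), close to the 6.23% of all merged regions.

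The sequence was poorer in GC and CpG than that of the comparison sets. The median GC content of this window was 48.8%, against 50.7% over all merged regions, 50.7% over the *GFI1-KD* regions and 55.2% over the shared regions. The median number of CpG was 2, against 3, 3 and 6. The GC box (GGGCGGG), a common element of CpG-rich promoters, was found in 2.25% (1.61% to 3.12%) of the windows, 5.69% of those of all merged regions and 10.7% of those of shared regions. Motifs were searched as fixed letters on both strands, and the motifs named here can overlap each other.

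Motifs of blood cell transcription factors were at most slightly more common than over all merged regions. The GATA motif (AGATAAG) was in 3.17% of the windows (2.40% to 4.18%) and in 2.22% of those of all merged regions. The values were 8.72% (7.40% to 10.2%) and 7.03% for C/EBP (TTGCNNAA), and 5.62% (4.57% to 6.89%) and 4.51% for RUNX (TGTGGTT). For these motifs the interval of the regions lay above the value of all merged regions. In the *GFI1-KD* regions, GATA was in 2.89% (1.53% to 5.41%), C/EBP in 9.0% (6.3% to 12.7%) and RUNX in 3.22% (1.76% to 5.82%). Each of these intervals overlapped that of the regions described here, so these motifs do not set them apart from the *GFI1-KD* regions. The core of the GFI1 motif (AATCNC) was in 24.6% of the windows (22.5% to 26.8%) and in 22.9% of those of all merged regions, a difference within the interval. The intervals also covered the value of all merged regions for PU.1 (GAGGAAG, 10.7% with a lower bound of 9.25%, and 9.27%), AP-1 (TGANTCA, 5.68% and 5.04%) and HOX-PBX (TGATTTA, 1.98% and 1.93%). The ETS motif (CCGGAAG), typical of housekeeping promoters, was in 1.52% and 2.13%.

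The peaks were weak, as were those of the *GFI1-KD* lists only. Fold enrichment, the fragments at the summit over the local background as the authors' peak caller gives it, had a median of 3.31 with vehicle (2.0 to 13.1) and 3.46 with curcumin (2.21 to 10.9). In the regions shared with another list the medians were 6.47 and 7.44. In the *GFI1-KD* regions they were 3.71 and 3.82 in the *GFI1-KD* lists, with 26 and 23 fragments at the median summit. The median summit held 23 fragments with vehicle and 19 with curcumin, and the median −log10 q was 4.92 and 4.75. Strength was defined as the lower of the 2 ranks of fold enrichment within each list, from 0 to 100, since enrichment is not normalized between lists. When the 26543 regions of both *GFI1-36N* lists were divided into 5 bins of equal size by strength, the weakest bin held 1143 of the 1513 regions, the next 338, the middle one 30, the next 2 and the strongest 0. The median strength was 15.9 for these regions, 22.1 where 1 other list had a peak, 28.5 where 2 had one, 55.3 where 3 had one and 84.8 where all lists had one.

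**Figure D2:**
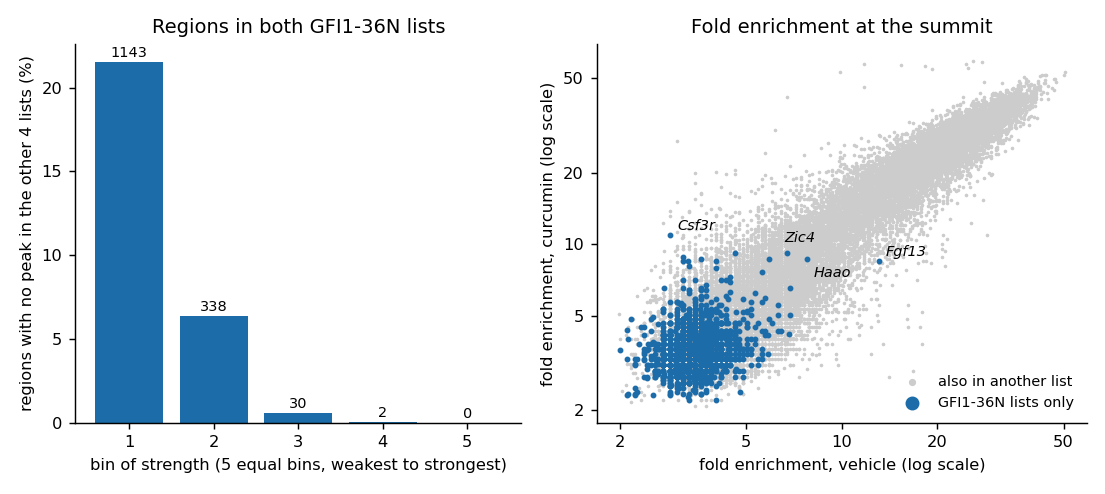
Left, share (%) of the regions of both *GFI1-36N* lists that had no peak in the other 4 lists, in 5 equal bins of strength, with their number above each bar. Right, fold enrichment with vehicle and with curcumin on log axes, in blue for the regions of the *GFI1-36N* lists only and in grey for those also in another list. The blue points gather at the low end, and 1143 of 1513 regions lay in the weakest bin.

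The distance to a peak of another genotype varied. The nearest peak of the other 4 lists was within 1 kb of 503 regions (33.2%), within 5 kb of 895 (59.2%) and within 10 kb of 1110 (73.4%). For the *GFI1-KD* regions and the 4 lists they lacked, the shares were 37.9% (32.7% to 43.4%), 56.0% (50.4% to 61.4%) and 66.2% (60.8% to 71.3%). At the edge of the rule, the weakest member lay near *Arl13b* at chr16:62807431-62808020, with a −log10 q of 1.31 with vehicle and 5.97 with curcumin. A region near *Dppa5a* at chr9:78363192-78363639, with 3.12 and 3.57, was left out for a *GFI1-36S* no curcumin peak of 1.31.

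The number of these regions depended on the length of the lists. The *GFI1-36N* lists held 39564 and 49213 peaks, the others between 20354 and 41312. When the 20354 peaks with the highest −log10 p were taken from each list, 241 regions were in both *GFI1-36N* lists only and 263 in both *GFI1-KD* lists only. With a −log10 q of at least 5 in every list, the numbers were 968 and 304. Both *GFI1-36S* lists only had 89 regions with equal lists and 62 with the stricter q. At equal length the *GFI1-36N* count was thus below that of *GFI1-KD* and above that of *GFI1-36S*.

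The control background also differed between the lists. MACS2 scores a summit against a background, and both the fragments at the summit and that background were recovered from the deposited fold enrichment and −log10 p for 98.6% to 99.9% of a list's peaks. The labels name a *GFI1-36S* input and a *GFI1-36N* rabbit IgG library as controls, and which list used which is not given in the sources used here. The background was above its genome-wide value at 12.6% and 9.7% of the peaks of the *GFI1-36N* lists and at 26.7% to 30.8% of those of the other 4. At summits within 100 bp of each other with a raised background in both lists, the background of the 4 other lists moved together (Spearman's correlation from 0.718 to 0.795 over 6 pairs of lists), as did that of the *GFI1-36N* pair (0.466, n = 777 regions). Between a *GFI1-36N* list and another list the correlation was from 0.012 to 0.129 over 8 pairs. Pearson's r was 0.784 to 0.856, 0.834 and 0.139 to 0.298 in the same order. These values describe peaks that share the libraries and the control.

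The difference was largest on chromosome 15, which held more of the regions than any other chromosome. Of 3134 merged regions there, 229 were in both *GFI1-36N* lists only (7.31%, 6.45% to 8.27%), against 1.94% (1.83% to 2.06%) on the autosomes other than 1, 14 and 15. The median background of peaks on chromosome 15 was 1.54 to 1.55 times the genome value in the other 4 lists and 1.0 in both *GFI1-36N* lists. Regions of both *GFI1-KD* lists only made up 0.064% of the merged regions there.

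Chromosomes 14 and 1 showed the same to a smaller degree. On chromosome 14, 77 of 2247 regions (3.43%) were in the *GFI1-36N* lists only, and the background of the other lists was 1.155 to 1.165 times the genome value. On chromosome 1 from 110 Mb on, the share was 4.79% (101 of 2109) and the background 1.188 to 1.225 times, and below 110 Mb they were 2.31% (42 of 1821) and 1.0. Chromosome 6 had a share of 2.97%, with a median background of 1.0 in all lists. There the log2 summit heights were set against the mean of *GFI1-36S* no curcumin and the *GFI1-KD* pair, at 496 regions found in all 6 lists. Each library's median difference from that mean over all such regions of the genome was subtracted. The *GFI1-36N* curcumin library was then higher on chromosome 6 by 0.117.

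**Figure D3:**
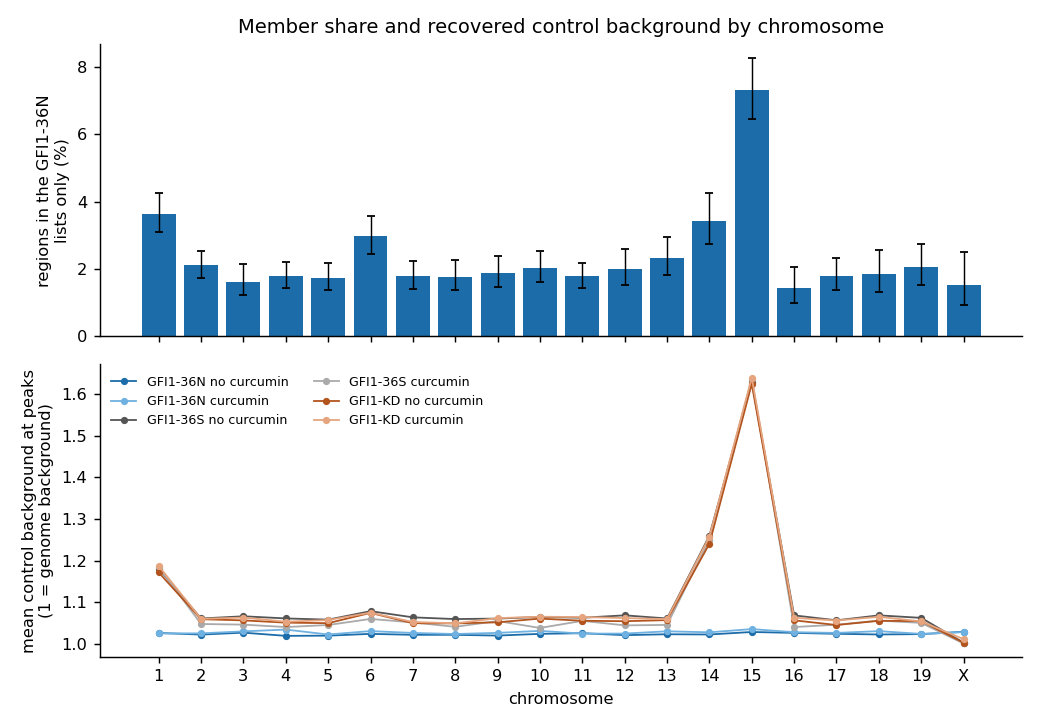
Top, share (%) of the merged regions of each chromosome that were in the *GFI1-36N* lists only, with 95% Wilson intervals. Bottom, mean recovered control background at the peaks of each list, where 1 is the genome background. Chromosome 15 stands highest in both, with 7.31% of regions and a mean background of 1.62 to 1.64 in the 4 other lists.

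A higher background asks for more fragments before a peak is listed. On chromosome 15 the 5th percentile of summit fragments over the listed peaks was 22 to 28 in the 4 other lists, against 17 to 21 on the autosomes other than 1, 14 and 15, and in the *GFI1-36N* lists it was 19 and 16 on both. Height over the genome background was taken within each library and is not normalized between lists. Expressed as this height, between 48.5% and 65.9% of the 229 regions on chromosome 15 lay below the 5th percentile of listed peaks there in each of the other lists. On the autosomes other than 1, 14 and 15 the share was 4.77% for both no-curcumin lists and 23.8% and 28.3% for *GFI1-KD* and *GFI1-36S* with curcumin. Summit heights were also compared at 463 regions of chromosome 15 found in all 6 lists, against the mean of *GFI1-36S* no curcumin and the *GFI1-KD* pair. Each library's median difference over all such regions of the genome was again subtracted. The *GFI1-36N* libraries were then higher by 0.05 and 0.10 on the log2 scale, and the library labelled *GFI1-36S* curcumin by 0.72. That library was also higher on chromosome 14, by 0.36, and on the distal part of chromosome 1, by 0.33. The part of the control in the choice of these regions was not tested beyond these values.

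Without chromosomes 14 and 15 and the distal part of chromosome 1, 1106 regions were left. Their promoter share was 11.7% and their median GC content 49.3%. Of the 648 with a peak of another list within 5 kb, 29.2% (25.8% to 32.8%) had a raised background in that neighbouring peak. Here the distance ran from summit to summit, whereas other distances to a peak of another list ran from edge to edge. For shared regions outside the same chromosomes the share was 19.1%. A shared region itself holds a peak of another list, which can be the nearest one, so these shares are not like for like.

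Both *GFI1-36N* libraries were compared at the same regions to see how the mark stood with curcumin. Of the 1513 regions, 899 (59.4%, 56.9% to 61.9%) ranked higher with curcumin than with vehicle, against 69.6% of all regions of both *GFI1-36N* lists. With a −log10 q of at least 5 in every list, the shares were close, 71.9% (69.0% to 74.6%) and 73.2%. Ranks were taken within lists of unequal length, 39564 peaks with vehicle and 49213 with curcumin. The part of list length in these shares was not tested. The height of the summit over the genome background was a median of 1.052 times that with vehicle, against 1.18 times over all regions of both lists. It was at least 1.5-fold higher in 118 regions (7.80%, against 15.5%) and at least 1.5-fold lower in 19 (1.26%, against 2.38%). A region had to be listed in both libraries to be compared.

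**Figure D4:**
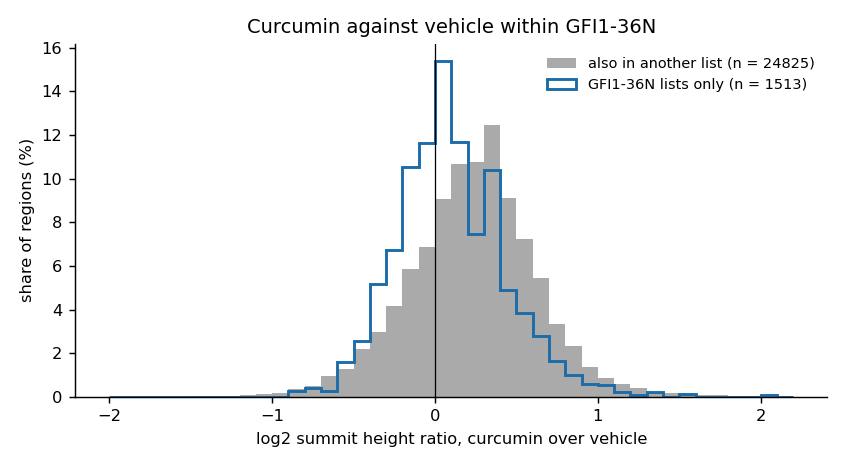
Distribution of the log2 ratio of summit height, curcumin over vehicle, as a share of regions (%), for regions in the *GFI1-36N* lists only (blue line) and those also in another list (grey). The medians were 0.07 and 0.24.

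*Csf3r*, the receptor for G-CSF that drives neutrophil production, had the widest gap between the treatments. The region lay 20229 bp from its TSS at chr4:126003424-126005373, between genes, with a fold enrichment of 2.88 with vehicle and 10.9 with curcumin, from 19 and 62 fragments. Its height was 4.04 times higher with curcumin, the upper end of the range of 0.55 to 4.04. It was the only region of the neutrophil list among 224 nearest to its 18 genes.

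*Gfi1* itself had 1 such region among the 17 merged regions nearest to it. It lay at chr5:107701054-107701395 in a noncoding gene, 15.3 kb from the end of *Gfi1* (chr5:107716657-107726036, minus strand), with a fold enrichment of 4.46 with vehicle and 4.33 with curcumin. *Gfi1b*, the related repressor of erythroid cells and platelets, had 0 among 8, and the nearest region was 84.3 kb away. Of the 12 genes listed for GFI1 and its corepressors, *Cbx5*, which encodes heterochromatin protein HP1α, was the other one with such a region, in an intron, with 3.31 and 2.75.

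The strongest region of all lay near *Fgf13*, an intracellular FGF homologue that acts on sodium channels. At chrX:59584575-59586570 its fold enrichment was 13.1 with vehicle and 8.48 with curcumin, from 90 and 48 fragments. It was 1 of 5 in a stretch of 8.8 kb, the most in any cluster, and fold enrichment was lower with curcumin at all 5 (2.94 to 8.48, against 3.88 to 13.1 with vehicle). The promoter of *Fgf13* had a peak in 3 lists.

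*Haao*, an enzyme of tryptophan breakdown, came next, with 7.76 and 8.65 at a region 150166 bp from its TSS. Regions near *Tuba1b*, which encodes an alpha-tubulin (6.90 and 6.58), *Pdzd2* (6.33 and 5.54), *Nipbl*, the cohesin loader (5.75 and 5.97), and *Trio*, a guanine nucleotide exchange factor (5.18 and 5.02), followed, all 4 on chromosome 15. The *Slc35f5* (6.29 and 5.02) and *Nek7* (5.18 and 5.71) regions lay in introns on the distal part of chromosome 1. The *Hlx* region (5.61 and 7.61) also lay there, between genes, 318327 bp from the TSS of *Hlx*, a homeobox factor of blood cells. The *Dhrs4* region (6.90 and 5.02) lay on chromosome 14. Of the 12 strongest regions outside promoters, those of *Fgf13*, *Haao*, *S100z* (5.90 and 8.65) and *Slc18a1*, a monoamine transporter (5.61 and 5.71), were thus outside the segments of raised background.

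In promoters the strongest region was at *Zic4*, a zinc finger factor of the developing cerebellum that shares its locus with *Zic1*. The fold enrichment was 6.76 with vehicle and 9.17 with curcumin at chr9:91381072-91382064. A second promoter region (4.46 and 7.27) lay at the 5′ end of *Zic4*, at chr9:91361123-91362706, with another at *Zic1*, and the nearest peak of another list was 205522 bp away from the first of these and farther from the others. *Tvp23b*, a Golgi membrane protein (5.32 and 6.23), *Corin*, the protease that activates atrial natriuretic peptide (5.03 and 5.22), *Fam189a1* (4.67 and 5.19) and *Gapdhs*, the sperm form of GAPDH (4.32 and 4.85), also had promoter peaks in the *GFI1-36N* lists alone.

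Most promoter regions, however, belonged to genes with a promoter peak elsewhere. Of 157, 82 were at genes with a promoter peak in all 6 lists, 26 in 3 to 5 lists, and 49, at 46 genes, in the *GFI1-36N* lists alone. The matching split over all promoter regions is not given here, so these counts stand without a comparison. *Prpsap1* (5.46 and 4.67), *Cracr2a*, a calcium channel regulator (4.46 and 4.33), and *Dlgap5*, a spindle protein (4.32 and 4.33), had promoter peaks in all 6 lists, and *Phactr1* (6.33 and 4.33) in 3. Outside promoters the shares were close to those of all merged regions. Of 1356 regions, 926 (68.3%, 65.8% to 70.7%) were nearest to a gene with a promoter peak in all 6 lists and 154 (11.4%) to one with none, against 69.3% and 11.1% over all merged regions and 52.9% (46.6% to 59.2%) and 18.5% in the *GFI1-KD* regions.

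The 1513 regions were nearest to 1245 genes, and 192 genes had at least 2. *Irf8*, a transcription factor of monocytes and dendritic cells, had the most, 8 of the 28 merged regions nearest to it. They formed 2 clusters of 4, at chr8:120745274-120763567 and chr8:120783985-120795707, the first over the gene and just past it, the second farther past its 3′ end. The 5 regions past the gene count as intronic because they lie in *Gm20388*, an annotated gene that runs across *Irf8*. With vehicle the fold enrichment of the 8 regions was 2.74 to 4.75, and the curcumin library gave 2.94 to 4.67. A peak of another list lay within 5 kb of all 8. The *Irf8* promoter had a peak in all 6 lists.

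Of the 14 genes with at least 4 regions, 9 were on chromosome 15, and of the 6 with at least 5, 4 were. *Mtss1* and *Pacsin2*, which shape membranes and actin, *Slc38a2*, an amino acid transporter, and *Mtdh* had 5 each. The merged regions nearest to them numbered 33, 35, 23 and 9. *Ptger4*, a receptor of prostaglandin E2, *Fam49b* and *Ext1*, which builds heparan sulfate, had 4 each, of 16, 35 and 16. Over all merged regions of chromosome 15 the share was 7.31%. *Fut8*, which adds the core fucose to glycoproteins, had 4 of 35 on chromosome 12. Apart from *Fgf13*, the genes named here had a promoter peak in all 6 lists.

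The marker lists held few of the regions. In the monocyte and macrophage list, 10 of the 133 regions nearest to its genes (7.52%) were in the *GFI1-36N* lists only, 8 of them at *Irf8* and 1 each at *Mrc1*, the mannose receptor (3.74 and 3.46), and *Adgre1*, which encodes F4/80 (3.02 and 3.12). The megakaryocyte list had 3 of 65, at *Vwf* (5.61 and 3.29), *Selp* (3.02 and 4.50) and *Gp1ba* (2.88 and 3.63). The stem and progenitor list had 3 of 175, with a pair in introns of *Angpt1*, a ligand of the Tie2 receptor, on chromosome 15 (4.38 and 5.88, and 3.42 and 4.03) and 1 at *Erg*, an ETS factor of stem cells (3.74 and 2.61).

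The T and NK cell list had 3 of 104, nearest to *Ncr1* (3.45 and 3.46), *Tbx21* (3.02 and 3.63) and *Eomes* (3.02 and 5.37). The *Ncr1* region lay in an exon of *Gp6*, 27042 bp from the *Ncr1* TSS, and no promoter peak of *Ncr1* was listed. Each of the following lists had 1. The nearest gene was *Ccr3* in the mast cell, basophil and eosinophil list of 52 regions (3.88 and 4.15). It was *Cd22* in the B-cell list of 49 (3.07 and 2.57) and *Zbp1* in the interferon-stimulated list of 74 (4.03 and 3.29). In the dendritic cell list of 62 it was *Tcf4*, with its TSS 190975 bp away (3.6 and 3.29). The stromal and endothelial list had 0 of 48. Against the 2.35% of all merged regions, these counts are too small to set one list apart, and the monocyte count rests on the single locus of *Irf8*.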

How the data were processed

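H3K9ac ChIP-seq peak lists of 6 BM libraries, 1 per group, were analysed. The authors trimmed the reads with Trim Galore, mapped them to mm10 with BWA-MEM, called peaks per library with MACS2 and removed ENCODE black list regions. Versions and the control of each list are not given in the sources used here. The deposited columns hold, as the authors' peak caller wrote them, the fold enrichment at the summit, the −log10 of p and of q, an integer score and the summit's position. They are not normalized between lists. The input and IgG samples were not used here.

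Peaks were merged as stated above with Python 3.11.15, numpy 2.4.6, pandas 2.3.3, scipy 1.17.1, pysam 0.24.0, samtools 1.23.1 and matplotlib 3.10.9. Genes came from GENCODE M21 and sequence from RefSeq GRCm38.p6. The gene of a region was the protein-coding gene with the TSS nearest to the summit of the stronger peak, a TSS of any transcript being used. Summit fragments and background were solved from the relation of fold enrichment and Poisson p in MACS2, within 0.002 on the −log10 p scale, and a background was raised above 1.01 times the genome value. The number of fragments at a summit sets the precision, and read totals are unknown. Merging and recovery were tested on simulated data.

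The regions, gene lists and tests were chosen with earlier results of these data known. Named genes are *Gfi1* and *Gfi1b*, those of the 12 strongest regions outside promoters and the 10 strongest in promoters, the 10 genes with the most regions (ties at 4 broken by the strongest region), and up to 4 genes of each list by strength. The count of regions for the erythroid list is not reported here. *Arl13b*, *Dppa5a*, *Gm20388*, *Gp6* and *Zic1*, and the distal boundary on chromosome 1, were picked after their values were seen. No test was made, since each group has 1 library. For *GFI1-36S* the list names and the labels give opposite treatments. The labels were followed, which does not change the choice of regions. Values given for a single *GFI1-36S* library would pass to the other treatment if the list names are right. Alternatives changed the peaks taken, the merging distance, the lists that had to lack a peak, the promoter definition, the measure ranked and the sequence window.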

Additional observations from a re-analysis of the deposited data

How the results depend on the processing

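Of 37 alternative values, 23 stayed within 1.5 times the count or within the interval of the share or median. The number of regions, 1513, was 968 with a −log10 q of at least 5 in every list, 241 with equal numbers of top peaks, 383 with a −log10 q of at least 5 in the *GFI1-36N* lists only, and 618 with no peak of the other 4 lists within 5 kb. Leaving out 1 of the other 4 lists gave 1661 to 2336 regions, with 2336 without *GFI1-36S* no curcumin and 2295 without *GFI1-KD* no curcumin, and a promoter share of 10.2% to 11.85%. The promoter share, 10.4%, was 13.1%, 17.4% and 12.8% in the first 3 of these settings, 24.9% with 3 kb on each side of a TSS (38.9% of all merged regions) and 15.0% with TSSs of all biotypes (31.3%), and below that of all merged regions in every setting where both were computed. The share ranked higher with curcumin, 59.4%, was 71.9% with a −log10 q of at least 5, against 73.2% of all regions of both lists. The median GC content, 48.8%, was 47.8% over the whole region and 46.7% over 500 bp to either side of the summit. Leaving out chromosomes 14, 15 and the distal part of 1, an alternative chosen after seeing the data, kept all 4 values in range. No paired analysis was possible because each group has 1 library. The depth limits the regions to summits of 14 fragments or more, and an absent peak is not an absence of the mark.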
